A study of Mus musculus with 48 samples.

Results

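The adult heart was set against brain, retina, kidney, liver and lung of the same age, to describe the genes whose messages and ribosome footprints were higher or lower in heart than in every other tissue sampled. The hearts came from wild-type C57BL/6 mice on postnatal day 42 (P42), and gave 2 samples by RNA-seq and 2 by Ribo-seq. The other P42 tissues gave 10 samples by each assay, 2 per tissue, from mice of the same strain, genotype and age. These 24 samples are part of a series of 48, the rest of which come from embryonic day 15.5. The series title speaks of a translatome in space and time, and the design text states that replicates were biological.

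RNA-seq of polyadenylated RNA measures messenger levels, while Ribo-seq counts ribosome footprints, the stretches of a message that a bound ribosome keeps from being digested. The heart is a muscle that never rests. Its working cells, the cardiomyocytes, contract when calcium released from the sarcoplasmic reticulum lets myosin of the thick filament pull on actin of the thin filament, and relax when the calcium is pumped back. They draw most of their energy from fatty acid oxidation in densely packed mitochondria, and they carry muscle forms of many proteins of which other tissues use another form.

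The deposited values were TPM, a level scaled for transcript length and to a fixed total per sample, for 22055 genes, and read totals are unknown. The tissues were bulk samples, in which fewer cells of a type and less RNA per cell cannot be told apart. Listed genes summed to 87.7% and 85.8% of the TPM total in heart RNA-seq, against 83.1% to 93.4% in the other tissues, and to 27.1% and 27.4% in heart Ribo-seq, against 26.2% to 61.1%. Across tested genes, which are not independent, Pearson's r between the 2 heart samples was 0.997 for RNA-seq and 0.976 for Ribo-seq. The 13 mitochondrially encoded genes took 54.2% and 55.5% of the TPM total in heart RNA-seq, against 8.71% to 23.7% in the other tissues. In footprints their share was 7.19% and 6.83% in heart, against 0.477% to 4.90%. Since TPM add up to a fixed total, so large a share lowers the TPM of every nuclear gene in heart. Over all tested genes the median difference of heart from each other tissue was -1.74 (retina) to -0.14 (liver) on the log2 scale by RNA-seq, and -1.15 to 0.26 with the mitochondrially encoded genes left out. Results are therefore given in both scalings.

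A gene was called higher or lower in heart when it differed from each of the 5 other tissues by at least 1 on the log2(TPM + 1) scale, with an adjusted p below 0.05 in all 5 contrasts. Differences below are heart minus the nearest other tissue, that is the smallest of the 5, with its standard error (SE) and the largest of the 5 adjusted p-values. By RNA-seq 244 of 16416 tested genes (1.49%) were higher and 1122 (6.83%) lower in heart than in each other tissue. With mitochondrially encoded genes left out, 443 of 16599 (2.67%) were higher and 212 (1.28%) lower, so the direction of the majority turned with the scaling. Of the 244, 231 were called in both scalings, and of the 1122, 211. By Ribo-seq 839 of 16076 genes (5.22%) were higher and 178 (1.11%) lower, and with mitochondrially encoded genes left out 881 (5.47%) and 153 (0.949%). Both assays called 192 genes higher (1.25% of 15381) and 158 lower (1.03%). All 192 were also called with the mitochondrially encoded genes left out, and 68 of the 158 were. With 2 further scalings 191 and 10 were called in all 4. By RNA-seq, median-of-ratios scaling called 4.47% higher and 0.765% lower, and an equal sum of listed genes 3.44% and 0.896%. By Ribo-seq these shares were 8.18% and 0.236%, and 9.79% and 0.145%, and for both assays 2.52% and 0.164%, and 2.67% and 0.142%. Both assays called 1.4% higher and 0.446% lower with mitochondrially encoded genes left out. The 192 shared genes were 78.7% of the RNA-seq list and 22.9% of the Ribo-seq list.

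The Ribo-seq list of higher genes held a group whose messages were all but missing from heart. Of its 839 genes, 607 had a mean below 1 TPM in heart RNA-seq and 517 a mean below 0.1 TPM. Among them were genes known from male germ cells. Hist1h2ba, a testis histone H2B, had 412 and 1101 TPM in heart footprints, against a lowest, median and highest of 1.13, 22 and 79.8 TPM in the other 10 samples, while by RNA-seq heart had 0.0824 and 0.0919 TPM. Ldhc, the lactate dehydrogenase of sperm, had 215 and 502 TPM in heart footprints, against 0.0788 to 35.1 TPM, and 0.02 and 0.156 TPM in heart messages. Prm1, the protamine that packs sperm DNA, had 127 and 289.9 TPM in heart footprints and 0.111 and 0.0618 TPM in heart messages. Replicate 2 of heart was the higher in each of the 3. Of 30 germ cell genes listed after these values were seen, all 30 were called higher by Ribo-seq, beside 5.22% of all genes, and 0 of the 7 tested by RNA-seq, beside 1.49%, also at an unadjusted p under 0.05 in limma. These genes were picked for their footprints, so the count supports nothing further. Their footprints summed to 1692 and 4102 TPM in heart, 238 and 175 TPM in brain, 300.3 and 195 TPM in kidney, 35.4 and 51.7 TPM in liver, 115 and 17.2 TPM in lung, and 4.98 and 22.4 TPM in retina. Over the 607 genes the median ratio of replicate 2 to replicate 1 in heart footprints was 2.21, and over the 232 others it was 0.927. The source of these footprints was not tested. Heart footprints also held hepatocyte markers at a summed 370.2 and 948 TPM, against 6.53 and 7.37 TPM by RNA-seq in the same tissue. Lung epithelial markers summed to 539.9 and 1689 TPM in heart footprints, against 196 and 190 TPM in heart messages. Kidney tubule markers summed to 149 and 160 TPM in heart footprints, against 0.126 and 0.230 TPM in heart messages, and were close to level between the replicates. With calls kept to genes of at least 1 TPM in heart RNA-seq, 232 of 10527 genes (2.2%) were higher and 1.42% lower by Ribo-seq. The shared higher calls stayed at 192, which was fixed in advance, since a gene called higher by RNA-seq has at least 1 TPM in heart. The results below rest on RNA-seq and on calls shared by both assays.

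**Figure D1:**
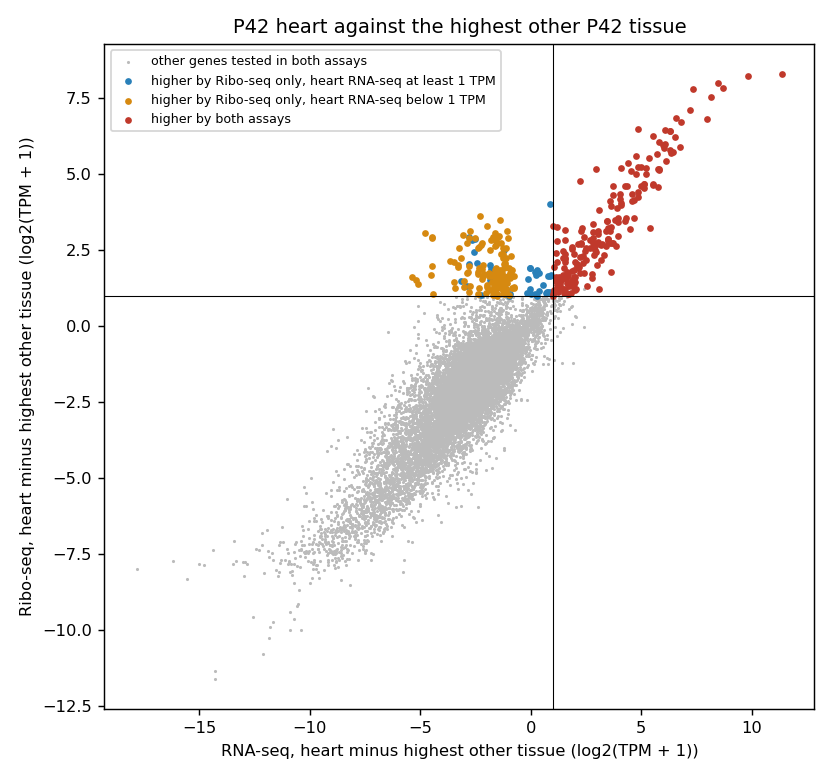
Difference of P42 heart from the highest other P42 tissue by RNA-seq (x axis) and by Ribo-seq (y axis), on the log2(TPM + 1) scale, for the 15381 genes tested in both assays, one point per gene, with lines at 1. The 192 genes called higher by both assays (red) run along the diagonal. The genes called higher by Ribo-seq alone with heart RNA-seq below 1 TPM (orange) lie left of 0 by RNA-seq. The filter largely sets that position, since such genes were tested by RNA-seq mainly through their level in other tissues. Genes not tested by RNA-seq are not shown.

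The heart label held against its markers. Of 6 cardiomyocyte genes, Myh6, Actc1, Tnnt2, Tnni3 and Nkx2-5 were called higher by both assays. Ryr2, the calcium release channel of the sarcoplasmic reticulum, which neurons also use, was not called with the deposited values. It was called by RNA-seq with mitochondrially encoded genes left out. It had 16.2 and 15.6 TPM in heart, against 18.1 and 10.9 TPM in retina and 6.71 and 6.92 TPM in brain, with overlap between heart and retina. By Ribo-seq it had 49.1 and 44.6 TPM in heart, against 26.2 and 23 TPM in brain, the next highest, a difference of 0.90 that missed the threshold of 1.

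The genes that stood farthest above every other tissue in both assays were genes of contraction, calcium handling and energy supply. Myl2 (chromosome 5, 122100951 to 122113472, GRCm38), the regulatory light chain of ventricular myosin, led the list. It had 7786 and 8027 TPM by RNA-seq in heart, against a lowest, median and highest of 0, 0.0745 and 2.52 TPM in the other 10 samples, a difference of 11.38 (SE 0.15, largest adjusted p = 3.51e-13) from brain. By Ribo-seq it had 3500.2 and 3141 TPM in heart, against 0.202, 2.01 and 21.2 TPM, a difference of 8.29 (SE 0.66, largest adjusted p = 3.37e-07). Both heart samples lay far above all others in both assays. Myl3 (chromosome 9, 110741861 to 110769798), the essential light chain of the same myosin, had 3449 and 3359 TPM in heart messages, against 0, 0.622 and 3.96 TPM, a difference of 9.84 (SE 0.33, largest adjusted p = 4.75e-10). Pln (chromosome 10, 53337667 to 53345987), phospholamban, which restrains the calcium pump, had 2890.3 and 2395 TPM, against 0, 1.51 and 8.89 TPM, a difference of 8.68 (SE 0.29, largest adjusted p = 4.85e-10). Mb (chromosome 15, 77015487 to 77050670), the oxygen carrier myoglobin, was the most abundant nuclear message of heart with 9884 and 9098 TPM, against 0, 0.711 and 42.1 TPM, a difference of 8.47 (SE 0.44, largest adjusted p = 1.19e-08). None of these 3 overlapped any other tissue.

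The next in order were Mybpc3, the cardiac myosin-binding protein C, with a difference of 8.16 by RNA-seq and 7.55 by Ribo-seq, and Ckm, the muscle creatine kinase, with 7.96 and 6.83. Ckmt2, the sarcomeric mitochondrial creatine kinase, stood 7.35 and 7.82 above the nearest tissue, and Myh6, the fast alpha myosin heavy chain of the adult mouse heart, 7.22 and 7.10. Hrc, a calcium-binding protein of the sarcoplasmic reticulum, followed with 6.78 and 6.73, Tcap, the telethonin that caps titin at the Z disc, with 6.74 and 5.89, Tnni3, cardiac troponin I, with 6.57 and 6.87, and Cox8b, a muscle subunit of cytochrome oxidase, with 6.53 and 6.24. For all 12 genes both heart samples lay above all 10 others in both assays. Over the 192 genes the median difference from the nearest tissue was 3.01 by RNA-seq and 2.80 by Ribo-seq, as a description of genes chosen for being higher.

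**Figure D2:**
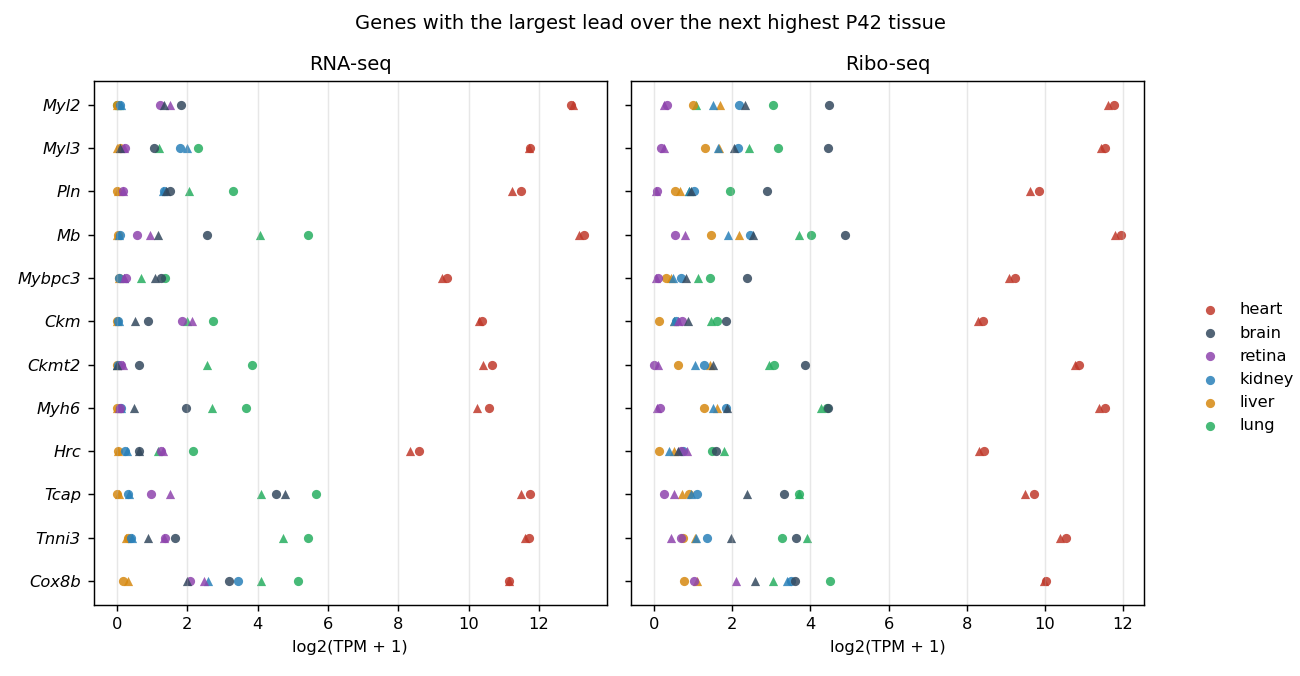
Levels of the 12 genes with the largest lead over the next highest P42 tissue by RNA-seq, as log2(TPM + 1) on the x axis, one point per sample, with circles for replicate 1 and triangles for replicate 2. Heart samples (red) lie above 8 and all other samples below 6 for every gene in both assays.

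These 192 genes made up a large share of what the heart expressed. Together they took 27.1% and 27.1% of the listed nuclear TPM in heart RNA-seq, against 0.08% to 0.42% in the other tissues. By Ribo-seq they took 24.9% and 21.8% in heart, against 0.0691% to 0.617%. The genes were chosen from these samples for being higher in heart, so the contrast with the other tissues follows from the choice. Of the 20 most abundant nuclear messages of heart, 15 were called higher, beside 1.49% of all genes, among them Mb, Myl2, Actc1, Cox6a2 and Fabp3. Of the 20 most abundant by footprint, 15 were called as well, beside 5.22%, and 13 genes were in both lists of 20. These genes were picked for a high level in the same heart samples, so a raised share of calls follows in part from the choice. The next highest tissue by RNA-seq was lung for 76 of the 192 genes, brain for 45, retina for 34, kidney for 27 and liver for 10.

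Most genes of the sarcomere were higher in heart. Of 21 thick filament genes, 15 were higher by RNA-seq and 0 lower, and of 20 tested by Ribo-seq 15 were higher, beside 1.49% and 5.22% of all genes. Their median difference from the mean of the other tissues was 4.84 by RNA-seq, against -1.17 over all tested genes. The 15 included titin (Ttn), the M band proteins Myom1 and Myom2, and the ubiquitin ligases Trim54, Trim55 and Trim63. A gene could pass the filter on low values through its 2 heart samples alone, so these counts and medians are descriptions. Myh6 had 1534 and 1221 TPM in heart, against 0 to 11.8 TPM in the other samples, a difference of 7.22 (SE 0.40, largest adjusted p = 1.99e-08). Myh7, the slow beta heavy chain, had a far lower level than Myh6 and was called higher by RNA-seq, with 17.1 and 17.4 TPM in heart, against 6.25 and 5.63 TPM in brain, a difference of 1.40 (SE 0.11, largest adjusted p = 2.17e-07). By Ribo-seq Myh7 had 2.91 and 2.95 TPM in heart, against 9.31 and 6.88 TPM in lung, and was not called. The sequences of Myh6 and Myh7 are close, and how reads matching both were counted is not given in the sources used here.

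Of 18 thin filament genes, 17 were tested and 13 were higher by RNA-seq, and 13 by Ribo-seq, beside 1.49% and 5.22% of all genes. Actc1, cardiac actin, had 8303 and 6036 TPM in heart messages, against 0, 2.21 and 146 TPM elsewhere, a difference of 6.30 (SE 0.58, largest adjusted p = 1.12e-06). Its next highest tissue was lung, with 146 and 53.9 TPM. The cardiac troponins stood 6.42 (Tnnc1, the calcium sensor), 6.57 (Tnni3, the inhibitor) and 6.28 (Tnnt2, which binds tropomyosin) above the nearest tissue. The leiomodins Lmod2 and Lmod3, which lengthen actin filaments, stood 5.51 and 4.97 above it. Of 27 Z disc genes, 19 were higher by RNA-seq and 20 of 26 tested by Ribo-seq, against the same shares of all genes. Among them Myoz2, which binds calcineurin, had a difference of 6.31, Hspb7, a small heat shock protein, 6.10, Actn2, the alpha-actinin that cross-links actin, 5.53, and Ankrd1, a titin-binding ankyrin repeat protein, 4.67. Desmin (Des), the muscle intermediate filament, had 482 and 504 TPM in heart, against 72.4 and 49.3 TPM in lung, a difference of 3.02 (SE 0.15, largest adjusted p = 1.12e-08).

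Several of these genes carry letters of known muscle promoter elements just ahead of their start. Windows of 250 bases upstream were read from RefSeq on GRCm38.p6, and 141 of the 192 genes had a window, 171 windows in all. The stretches below run from base -160 to base -31 before the RefSeq start, 5′ to 3′ on the gene's strand. These genes are among the leading ones of the sarcomere lists, and each was picked by hand together with a motif that its stretch holds. They are examples and do not show how common the motifs are. Capitals mark a CArG box in Myl3 and Actc1, the element that serum response factor is known to bind, a MEF2 site in Mybpc3, and the letters GGAATG, the reverse complement of the MCAT element CATTCC, in Tnnc1. They lie at chr9:110763518-110763647 on the plus strand for Myl3, chr2:114052906-114053035 on the minus strand for Actc1, chr2:91117984-91118113 on the plus strand for Mybpc3 and chr14:31208152-31208281 on the plus strand for Tnnc1.
Myl3: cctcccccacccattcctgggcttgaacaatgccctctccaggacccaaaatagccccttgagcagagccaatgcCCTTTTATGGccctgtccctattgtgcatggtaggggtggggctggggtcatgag
Actc1: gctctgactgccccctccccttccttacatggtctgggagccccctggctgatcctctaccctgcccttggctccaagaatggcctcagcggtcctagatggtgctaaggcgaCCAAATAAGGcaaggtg
Mybpc3: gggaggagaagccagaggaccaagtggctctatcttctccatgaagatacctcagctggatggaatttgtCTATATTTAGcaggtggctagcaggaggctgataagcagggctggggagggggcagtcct
Tnnc1: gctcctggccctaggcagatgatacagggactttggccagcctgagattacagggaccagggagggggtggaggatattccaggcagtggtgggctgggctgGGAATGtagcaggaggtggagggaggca

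Read on both strands, a MEF2 site stood in 15.2% of the 171 windows, against 1.69% of the 15110 windows of all genes tested in both assays, heart genes included. A CArG box stood in 5.85% of them, against 1.22%, and CATTCC in 22.8%, against 11%. The letters AGATAA, read by GATA factors, stood in 15.2%, against 6.53%, and TATAAA in 18.7%, against 7.45%. A MEF2 site and TATAAA can share letters. A match describes the letters of a window and is not a measured binding site.

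Of 30 genes of calcium handling, 10 of 29 tested were higher by RNA-seq, beside 1.49% of all genes, and 8 of 28 tested by Ribo-seq, beside 5.22%. Atp2a2, the calcium pump of the sarcoplasmic reticulum, had 1435 and 1141 TPM in heart, against 283 and 322 TPM in brain, a difference of 2.08 (SE 0.15, largest adjusted p = 1.1e-07), and its footprints stood 1.97 above brain. Casq2, which stores calcium inside the reticulum, had 394 and 305 TPM in heart, against 0.0613 to 6 TPM, a difference of 6.08 (SE 0.23, largest adjusted p = 1.25e-09). Trdn, which ties Casq2 to the release channel, stood 5.11 above the nearest tissue, Trim72, a membrane repair protein, 6.05, and Rrad, an inhibitor of calcium channels, 3.79. Casq2, Trdn, Trim72 and Rrad were also called by Ribo-seq.

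Of 26 cardiac ion channel genes, 4 were higher by RNA-seq, beside 1.49% of all genes, and 1 was lower, beside 6.83%. By Ribo-seq 3 of the 26 were higher, beside 5.22%. Abcc9 and Kcnj8, subunits of channels that ATP closes, stood 2.50 and 1.81 above the nearest tissue. Kcnj11, another subunit of such channels in the list, was not called by either assay. The background potassium channel Kcnk3 stood 1.27 above the nearest tissue and was not called by Ribo-seq with the deposited values. Abcc9 and Kcnj8 are also pericyte markers. Cacna1d, a calcium channel of pacemaker cells and neurons, had 0.145 and 0.165 TPM in heart, against 1.92, 9.43 and 18 TPM, a difference of -1.49 (SE 0.15, largest adjusted p = 2.27e-06), and was not called by Ribo-seq. Of 25 genes of the intercalated disc and cell adhesion, 10 were higher by RNA-seq and 8 by Ribo-seq, with 24 tested in each, beside 1.49% and 5.22%. Sgca, a sarcoglycan of the muscle membrane, stood 5.74 above the nearest tissue, Itgb1bp2, the integrin-binding melusin, 5.34, and Popdc2, a cyclic AMP-binding membrane protein, 4.59.

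Of 30 cardiac transcription factors, 29 were tested by RNA-seq and 5 were higher, beside 1.49% of all genes. All 5 were higher by Ribo-seq too, of 28 tested, beside 5.22%. Nkx2-5, the homeobox factor of the cardiac lineage, had 58.5 and 53 TPM in heart, against 0, 0.0191 and 0.546 TPM, a difference of 5.42 (SE 0.13, largest adjusted p = 4.34e-11). Tbx20 stood 1.97 above the nearest tissue, Gata4 1.71, Myocd, the partner of serum response factor, 1.66, and Hand2 1.44. The nearest tissue of Gata4 and Hand2 was liver, with 6.48 and 6.92 TPM for Gata4, against 24.7 and 23.6 TPM in heart. Tbx5, a factor of both heart and lung development, had 7.08 and 5.35 TPM in heart, against 24.3 and 18.5 TPM in lung, a heart minus lung difference of -1.63 (SE 0.14). Lung was the higher of the 2 in all samples of both assays.

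Of 21 genes for natriuretic peptides and other proteins that the heart secretes or that process them, 18 were tested and 5 were higher by RNA-seq, beside 1.49% of all genes, and 4 by Ribo-seq, beside 5.22%. Nppa, atrial natriuretic peptide, had 172 and 325 TPM in heart, against 18.3 and 9.77 TPM in lung, a difference of 4.04 (SE 0.30, largest adjusted p = 2e-07). Nppb, brain natriuretic peptide, had 48.1 and 74.5 TPM in heart, against 0 to 1.49 TPM, a difference of 4.85 (SE 0.21, largest adjusted p = 7.19e-10). By Ribo-seq their differences were 4.36 and 5.25. Corin, the protease that activates pro-Nppa, stood 2.82 above kidney, Fgf16 2.56 above brain and Vegfb 1.27 above brain, of which Vegfb was not called by Ribo-seq.

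The heart samples held high levels of most messages of a ventricular list and low levels of many of an atrial list. Of 12 ventricular genes, 8 were higher by RNA-seq, beside 1.49% of all genes, and 7 by Ribo-seq, beside 5.22%. All 8 also stand in the sarcomere or creatine kinase lists of this report, so the count is not particular to the ventricle. Irx4, Hey2, Kcnip2 and Lbh were not called by either assay with the deposited values. Irx4 was called by RNA-seq with mitochondrially encoded genes left out. Of 16 atrial genes Nppa was higher by RNA-seq, beside 1.49%, and 2 were lower, Nr2f2 and Stard10, beside 6.83%. Nr2f2 was not below every tissue under median-of-ratios scaling. With mitochondrially encoded genes left out 2 of the 16 were higher, beside 2.67%, and 1 lower, beside 1.28%. By Ribo-seq 1 of 14 tested was higher, beside 5.22%, and 0 were lower. Myl7, the atrial regulatory light chain, had 19.1 and 26.1 TPM in heart, against 172 and 97.8 TPM in lung, a heart minus lung difference of -2.49 (SE 0.25). Sln, sarcolipin, the atrial inhibitor of the calcium pump, had 0.96 and 1.77 TPM in heart, against 17.1 and 6.71 TPM in lung. Mybphl, an atrial myosin-binding protein, had 0.397 and 1.11 TPM in heart, against 11.6 and 5.53 TPM in lung. In each of these 3 both lung samples lay above both heart samples, and the same held by Ribo-seq. Myl2, in contrast, had 0 and 0.0366 TPM in lung. In all, the lung mean was above the heart mean for 10 of 16 atrial genes and 1 of 12 ventricular genes by RNA-seq, and for 8 and 3 by Ribo-seq. Among the 10, Bmp10 and Fgf12 had means below 1 TPM in both tissues. These counts use the deposited values, in which the mitochondrially encoded share lowers nuclear genes more in heart than in lung. Nr2f2, Dkk3 and Stard10 of the atrial list are also expressed by cells other than atrial muscle. Which chambers were sampled is not given in the sources used here, and the source of these messages in lung was not tested.

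**Figure D3:**
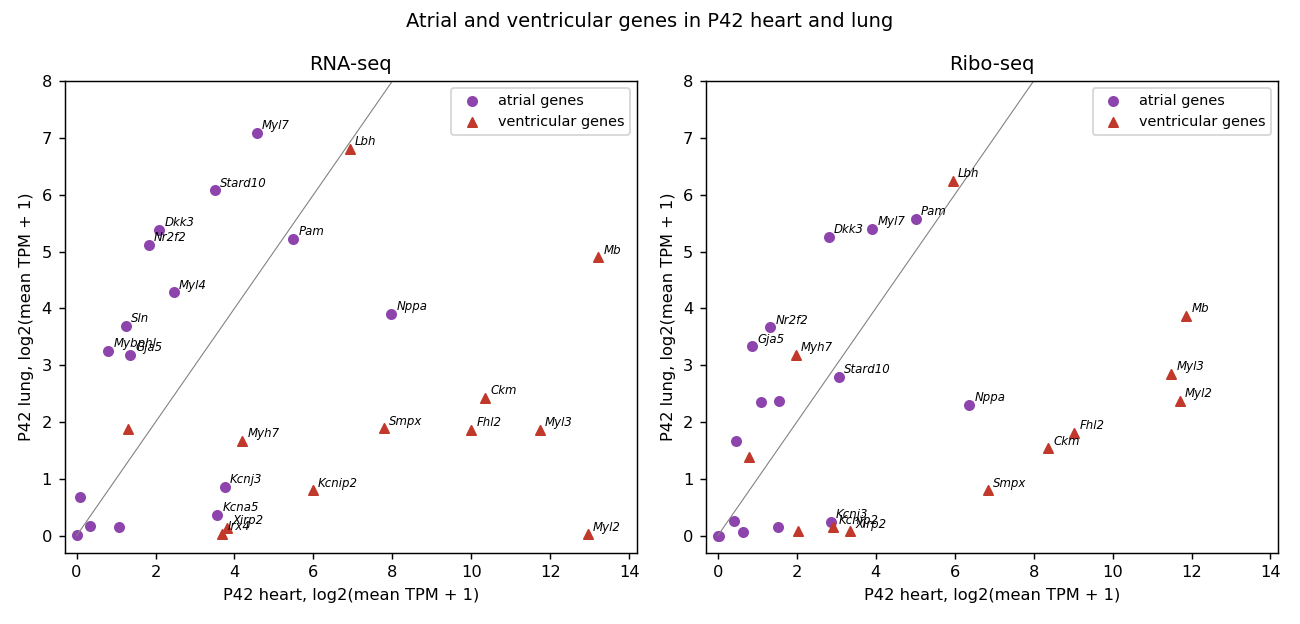
Mean level of 16 atrial genes (purple circles) and 12 ventricular genes (red triangles) in P42 heart (x axis) and P42 lung (y axis), as log2(mean TPM + 1), n = 2 samples per tissue, with the line of equal level in grey. Myl7, Sln, Mybphl, Dkk3 and Nr2f2 lie above the line in both assays, while Myl2, Myl3, Mb and Ckm lie far to the right of it.

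Genes of fuel use were higher for some members of each list, and how many depended on the scaling. Of 17 genes of the creatine kinase shuttle and oxygen storage, 16 were tested and 4, namely Ckm, Ckmt2, Mb and Slc25a4, were higher in both assays, beside 1.49% of all genes by RNA-seq and 5.22% by Ribo-seq. Slc25a4, the muscle ATP/ADP carrier, had 3503 and 3393 TPM in heart, against 843 and 921 TPM in brain, a difference of 1.97 (SE 0.15, largest adjusted p = 1.35e-07). Of 39 genes of fatty acid uptake and beta oxidation, 9 were higher by RNA-seq, beside 1.49% of all genes, and 9 by Ribo-seq, beside 5.22%. With mitochondrially encoded genes left out 19 were higher by RNA-seq, beside 2.67%, and 9 by Ribo-seq, beside 5.47%. Their median difference from the mean of the other tissues was 1.76 by RNA-seq, against -1.17 over all tested genes. Fabp3, the fatty acid carrier of heart cytosol, had 4432 and 3791 TPM in heart, against 244 and 285 TPM in brain, a difference of 3.95 (SE 0.21, largest adjusted p = 1.16e-08). Ucp3, an uncoupling protein of muscle mitochondria, stood 3.62 above the nearest tissue, Pdk4, the kinase that shuts pyruvate dehydrogenase, 2.80, Lpl, lipoprotein lipase, 1.98, and Cpt1b, which admits fatty acids to mitochondria, 1.89. Each was called by Ribo-seq too.

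Of 35 genes of glycolysis and glycogen, 4 were higher by both assays, beside 1.49% of all genes by RNA-seq and 5.22% by Ribo-seq. Of the same genes 1 was lower by both, beside 6.83% and 1.11%. Eno3, muscle enolase, stood 4.85 above the nearest tissue by RNA-seq, Pgam2, muscle phosphoglycerate mutase, 2.29, Slc2a4, the insulin-regulated glucose transporter, 2.15, and Pygm, muscle glycogen phosphorylase, 1.58. Aldoc, the aldolase of brain, had 0.0582 and 0.0433 TPM in heart, against 3.47 to 935 TPM, a difference of -2.18 (SE 0.15, largest adjusted p = 1.18e-07), and was lower by Ribo-seq as well.

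The nuclear genes of the respiratory chain and the citric acid cycle stood out from every tissue by RNA-seq mainly in the second scaling. Of 37 complex I genes, 0 were called with the deposited values and 15 were higher with mitochondrially encoded genes left out, beside 2.67% of all genes. In limma, 8 of the 37 were above all 5 tissues at an unadjusted p under 0.05 by RNA-seq with differences below the threshold of 1. Over all genes 367 of 16416 were, at any size of difference. By Ribo-seq 0 of 37 were called in either scaling. In limma 5 were above all 5 tissues at an unadjusted p under 0.05 by Ribo-seq, beside 1041 of 16076 genes. Of 40 genes of complexes III to V, Cox6a2, Cox7a1, Cox8b and Atp5g1 were higher with the deposited values, beside 1.49% of all genes. In the second scaling 14 were higher, beside 2.67%. By Ribo-seq 4 were higher, beside 5.22%, namely Cox6a2, Cox7a1, Cox8b and Cox7c. Atp5g1 was not called by Ribo-seq, and Cox7c was not called by RNA-seq. Of 24 genes of the citric acid cycle and its shuttles, 1 was higher by RNA-seq, beside 1.49% of all genes, and 7 in the second scaling, beside 2.67%. By Ribo-seq 0 were called, beside 5.22%. At an unadjusted p under 0.05 in limma 3 were above all 5 tissues, beside 1041 of 16076 genes. Cox6a1 was lower as deposited, but not in any of the other 3 scalings. The gene of the cycle was citrate synthase, Cs, with 326 and 282 TPM in heart, against 36.5 to 133 TPM, a difference of 1.21 (SE 0.12, largest adjusted p = 2.6e-06). Medians over these lists were above those of all tested genes in both assays: 1.11 for complex I, 1.36 for complexes III to V and 1.13 for the cycle by RNA-seq, against -1.17, and 1.09, 1.22 and 1.39 by Ribo-seq, against -0.63.

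With the deposited values all 13 mitochondrially encoded genes were higher in heart by RNA-seq, beside 1.49% of all genes, and 0 by Ribo-seq, beside 5.22%. By Ribo-seq limma put 1 of the 13 above all 5 tissues at an unadjusted p under 0.05, near the share of all genes (1041 of 16076). Under median-of-ratios scaling 3 of the 13, mt-Nd1, mt-Co1 and mt-Nd5, were called higher by Ribo-seq as well. mt-Co1, a core subunit of cytochrome oxidase, had 82398 and 86977 TPM in heart messages, against 8444, 15628 and 34104 TPM, a difference of 1.52 (SE 0.26, largest adjusted p = 0.000211) from kidney. By Ribo-seq it had 11342 and 10458 TPM in heart, against 666, 3459 and 6221 TPM, a difference of 0.82 (SE 0.37, largest adjusted p = 0.0825). Heart was the highest in both assays, but the footprint lead was below 1 with the deposited values. mt-Co2 and mt-Co3 were listed lowest of the 13, at 194 and 69.8 TPM and 229.5 and 87.6 TPM in heart messages, and the replicates were far apart. Replicate 2 of heart lay below replicate 1 of brain for mt-Co2, so that the tissues overlapped. mt-Nd6 lies on the other strand of mt-Nd5, and reads of the 2 cannot be told apart unless strand was used in counting, which is not given in the sources used here.

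Many of the genes higher in heart are the muscle member of a pair, and a share within a pair does not depend on the scaling. In 30 pairs, the form known from heart took more of the pair's TPM in both heart samples than in any of the other 10 samples for 23 pairs by RNA-seq and 21 by Ribo-seq. It was more than 50% of the pair in both heart samples for 29 and 28 pairs. Cox6a2 made up 95% and 95.4% of Cox6a2 plus Cox6a1 in heart messages, against 0.0255% to 15.7% in the other samples, and Cox8b 84.8% and 85.1% of its pair with Cox8a, against 0.0115% to 5.93%. Cox7a1 took 76.6% and 76.8% of its pair with Cox7a2 by RNA-seq, against 1.45% to 14.5%, and 57.2% and 54.6% by Ribo-seq, against 0.525% to 4.69%. These are subunits of cytochrome oxidase with a muscle and a general form. Rpl3l, the muscle form of ribosomal protein L3, took 85.8% and 85.5% of its pair with Rpl3 in heart messages, against 0.0761% to 2.04%, and 80.2% and 78.2% in footprints, against 0% to 3.95%. Rpl3l itself had 247 and 228 TPM in heart, against 0.0765 to 3.47 TPM, while Rpl3 had 40.8 and 38.6 TPM, against 93.7 to 187 TPM. The difference was 5.80 (SE 0.13, largest adjusted p = 8.21e-12) for Rpl3l. It was -1.26 (SE 0.14, largest adjusted p = 8.8e-06) for Rpl3, which was not called with mitochondrially encoded genes left out or by Ribo-seq, and whose heart level was not below that of every tissue under an equal sum of listed genes or median-of-ratios scaling.

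The muscle form also led in pairs of energy metabolism. Ckm took 98.6% and 98.8% of its pair with the brain form Ckb, against 0% to 22.4%, and Cpt1b 89.7% and 91.5% of its pair with the liver form Cpt1a, against 0.526% to 12.3%. Hk2, a hexokinase of insulin-sensitive tissue, took 65.3% and 70.5% of its pair with Hk1, against 0.253% to 46.2%, although its level in retina was higher than in heart. Eef1a2, an elongation factor of muscle and neurons, took 62.2% and 59.5% of its pair with Eef1a1, against 0% to 57.8%, with brain close below, and by Ribo-seq brain was the higher. Ldhb took 81.2% and 83.2% of its pair with Ldha in heart by RNA-seq, against 1.31% to 87.3%, and lay below brain and kidney. By Ribo-seq its share was 90.8% and 91.1% in heart, against 86% and 85.7% in brain and 90.3% and 91.6% in kidney, so heart lay above brain and overlapped kidney. Esrrg was the minor form beside Esrra in heart, with 8.14% and 5.68%, against 1.29% to 67.3%.

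**Figure D4:**
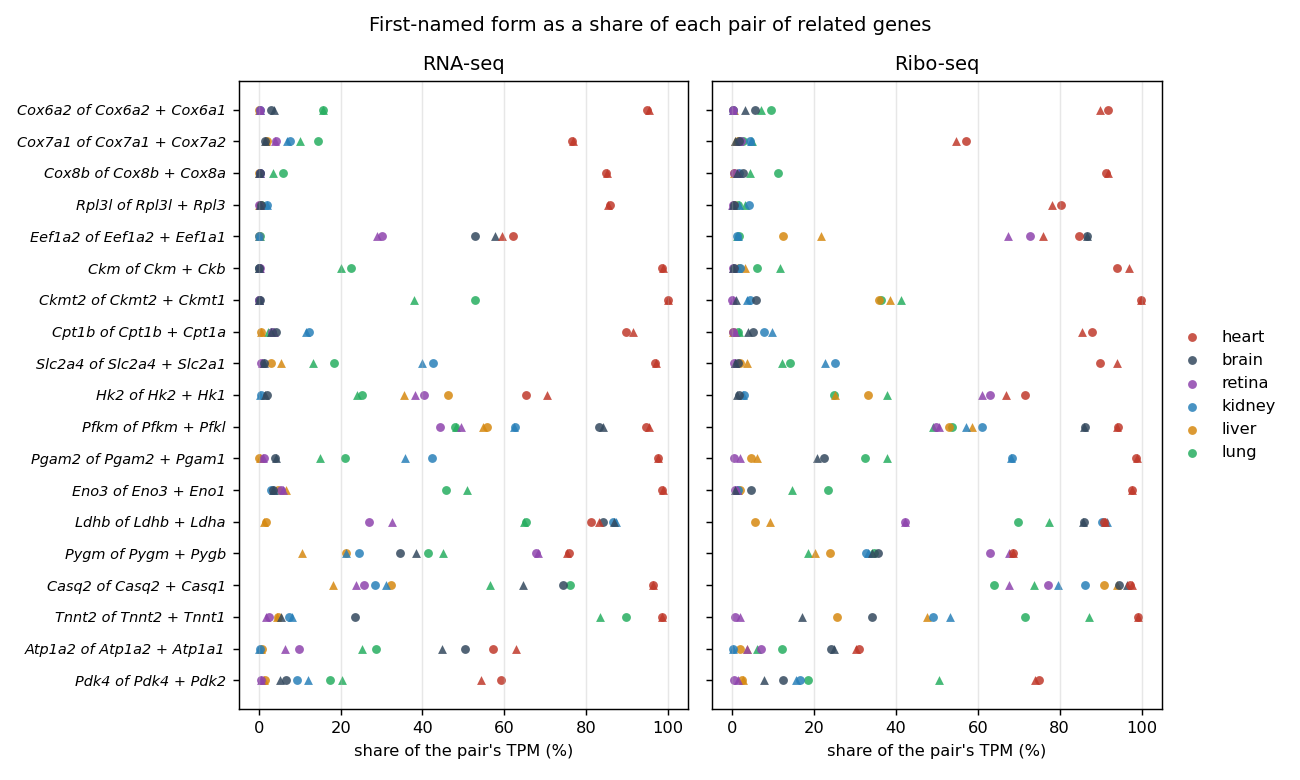
Share of the first-named gene in the TPM of a pair of related genes (x axis, %), for 19 of the 30 pairs, one point per sample, with circles for replicate 1 and triangles for replicate 2. Heart samples (red) lie right of all others for pairs such as Cox6a2, Cox8b, Rpl3l and Cpt1b, and for Ldhb they lie below brain (dark) and kidney (blue) by RNA-seq, and above brain and level with kidney by Ribo-seq.

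A further list of 35 muscle-restricted genes of other roles, which holds Rpl3l beside ankyrin-repeat, kelch-repeat and ADP-ribosyltransferase genes, had 25 members higher by RNA-seq and 24 of 32 tested by Ribo-seq, beside 1.49% and 5.22% of all genes. Lrrc10, a cardiomyocyte leucine-rich repeat protein, had 136 and 108 TPM in heart, against 0 to 0.932 TPM, a difference of 6.35 (SE 0.20, largest adjusted p = 3.69e-10). Txlnb stood 5.76 above the nearest tissue, the ADP-ribosyltransferase Art1 5.52, Srl, sarcalumenin of the sarcoplasmic reticulum, 5.01, and Asb10 4.51. Of 32 genes of coenzyme Q, cristae and mitochondrial maintenance, 2 were higher in both assays, beside 1.49% of all genes by RNA-seq and 5.22% by Ribo-seq, and 9 by RNA-seq in the second scaling, beside 2.67%. Of these 2, Perm1, a regulator of mitochondrial genes in muscle, stood 1.21 above retina, and Coq10a, which binds coenzyme Q, 1.22 above it. Of 24 genes of pyruvate, ketone and branched-chain oxidation, 1 was higher in both assays, Pdhb of pyruvate dehydrogenase, beside 1.49% of all genes by RNA-seq and 5.22% by Ribo-seq.

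Markers of other cell types were called higher in some lists and in none of others. Of 19 skeletal muscle fibre markers 0 of 12 tested were higher by RNA-seq, also at an unadjusted p under 0.05 in limma. By Ribo-seq 0 of 7 tested were called. At an unadjusted p under 0.05 in limma 2 were above all 5 tissues by Ribo-seq, beside 1041 of 16076 genes. By RNA-seq their summed level was 28.9 and 24.9 TPM in heart, against 2.75 to 411 TPM in the other samples. The fibre genes Myh4 and Actn3 had 0.021 and 0.0235 TPM and 0.0219 and 0.0488 TPM in heart. Of 6 brown fat markers Cox8b and Cidea were higher, beside 1.49% of all genes by RNA-seq and 5.22% by Ribo-seq. Heart muscle is also known to express both. Ucp1, the uncoupling protein of brown fat, had 0 and 0 TPM in heart. Of 8 white fat markers Fabp4 was higher, beside the same shares of all genes. Capillary endothelium is also known to express Fabp4. Adipoq, a fat cell gene, had 0.893 and 1.05 TPM in heart. Which cells the messages of these fat markers came from was not tested. Of 14 fibroblast and valve markers 1 was higher by each assay, Lum, a collagen-binding proteoglycan, beside 1.49% and 5.22% of all genes. With mitochondrially encoded genes left out 3 were higher by RNA-seq, Lum, Dcn and Pi16, beside 2.67% of all genes, and 2 by Ribo-seq, Lum and Dcn, beside 5.47%. By RNA-seq their sum was 1030 and 957 TPM in heart, against 12.7 to 3125 TPM elsewhere with lung the highest. Of 14 endothelial, 15 macrophage and leukocyte and 9 red cell markers, 0 were called by either assay in limma, also at an unadjusted p under 0.05. The shares over all genes were 1.49% by RNA-seq and 5.22% by Ribo-seq. The sum of each of these lists was highest in lung by both assays. For the endothelial list it was 2924 and 2532 TPM in lung RNA-seq, against 398 and 352 TPM in heart. These counts therefore do not bear on the presence of such cells in heart. Of 12 smooth muscle and pericyte markers, 4 were higher by both assays, beside 1.49% of all genes by RNA-seq and 5.22% by Ribo-seq, namely Des, Abcc9, Kcnj8 and Rgs5, an inhibitor of G protein signals, of which Rgs5 had a difference of 1.33 (SE 0.13, largest adjusted p = 1.81e-06). Of the 8 epicardial markers, whose sum was also highest in lung, 0 of 5 tested by RNA-seq and 0 of 8 by Ribo-seq were higher. That held at an unadjusted p under 0.05 in limma too. Likewise 0 of 11 hepatocyte, 10 lung epithelial, 10 neuron and 8 kidney tubule markers were higher by either assay, also at that unadjusted p. The tissues of these last 4 lists were among the 5 compared, so that outcome was set by the design and does not bear on their presence in heart. Of 24 cell cycle genes, Aurka was lower by RNA-seq, 1 of 23 tested beside 6.83% of all genes, and Bub1 higher by Ribo-seq, 1 of 24 beside 5.22%, so both shares were near or below those of all genes. Dbh, which makes noradrenaline in sympathetic nerves, was the one gene called of 8 tested Schwann cell and autonomic neuron markers by RNA-seq as deposited, beside 1.49% of all genes. It had 3.2 and 2.48 TPM in heart, against 0 to 0.501 TPM.

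Genes lower in heart than in every other tissue were spread over many functions, and most depended on the scaling. Among the 68 that both assays called in both scalings, Spp1 (chromosome 5, 104435118 to 104441050), the secreted phosphoprotein osteopontin, was farthest below, with 0.422 and 0.386 TPM by RNA-seq in heart, against 24.4, 114 and 2307 TPM, a difference of -4.30 (SE 0.15, largest adjusted p = 1.42e-10). By Ribo-seq it had 8.51 and 10 TPM in heart, against 23.6, 82 and 2157 TPM, a difference of -1.32 (SE 0.32, largest adjusted p = 0.00286). Both heart samples lay below all 10 others in both assays. Enpp2, the secreted enzyme autotaxin, was -3.62 from the nearest tissue by RNA-seq and -1.76 by Ribo-seq, Arl6ip1, which shapes the endoplasmic reticulum, -3.47 and -1.58, and Pgrmc1, a haem-binding membrane protein, -3.46 and -2.24. Ehd3, of endocytic recycling, followed with -3.33 and -2.18, Ptprf, a receptor phosphatase, with -3.14 and -1.94, and Os9, a lectin of protein quality control in the endoplasmic reticulum, with -3.00 and -1.79. The differences were smaller by footprint than by message for each of these genes. The genes were ranked by their difference by message, which favours that outcome. The mitochondrially encoded share also lowers nuclear genes in heart more by RNA-seq than by Ribo-seq, so the sizes are not compared further.

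Of 28 genes of protein entry into the endoplasmic reticulum and its chaperones, 15 were lower by RNA-seq, beside 6.83% of all genes. With mitochondrially encoded genes left out 1 was lower, Pdia4, a disulfide isomerase, beside 1.28% of all genes. Under median-of-ratios scaling the heart level of Pdia3, Rpn2 and Sec61a1, 3 of the 15, was no longer below that of every other tissue. By Ribo-seq 0 were called, and 8 were below all 5 tissues at an unadjusted p under 0.05 in limma, beside 850 of 16076 genes. Pdia4 had 14.6 and 11.5 TPM in heart, against 49.1 to 103 TPM, a difference of -1.89 (SE 0.14, largest adjusted p = 1.63e-07). Their median difference from the mean of the other tissues was -1.60 by RNA-seq, against -1.17 over all genes. Of 27 spliceosome and nuclear RNA-binding genes, 5 were lower with the deposited values, beside 6.83% of all genes, and 0 in the second scaling or by Ribo-seq. By Ribo-seq 2 were below all 5 tissues at an unadjusted p under 0.05 in limma, near the share of all genes (850 of 16076). Of 22 genes of glutathione and xenobiotic metabolism, 4 of 21 tested were lower by RNA-seq, beside 6.83%, and Gclc, of glutathione synthesis, and Por, the electron donor of cytochromes P450, were lower in both scalings and both assays, although under median-of-ratios scaling Por was not below every tissue by RNA-seq. Gclc had 2.83 and 2.44 TPM in heart, against 25.5 to 124 TPM, a difference of -2.89 (SE 0.17, largest adjusted p = 1.86e-08). Of 77 cytoplasmic ribosomal protein genes, Rpl3 was the one called, lower by RNA-seq, beside 6.83% of all genes. Of 15 circadian genes Per2 was lower by RNA-seq with the deposited values, beside 6.83%, but not below every tissue under median-of-ratios scaling. Of 20 epithelial genes Krt18 and Ocln were lower by RNA-seq, beside 6.83%. Ocln, a tight junction protein, was also called in the second scaling, beside 1.28%.

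**Figure D5:**
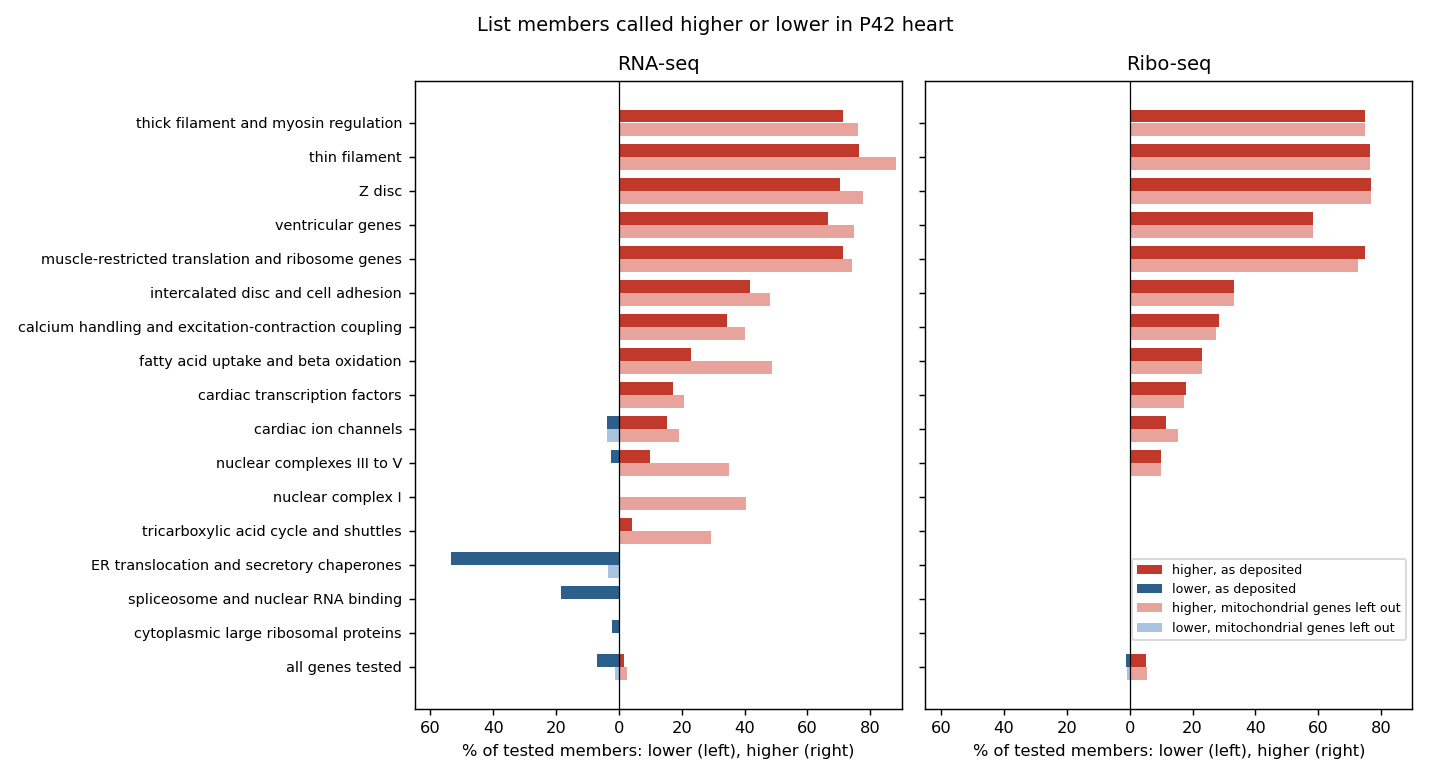
Share of tested members of each list that were higher (right, red) or lower (left, blue) in P42 heart than in each of 5 other P42 tissues (x axis, %), with the deposited values (dark) and with mitochondrially encoded genes left out (pale), by RNA-seq (left panel) and Ribo-seq (right panel). Sarcomere lists reach over 70% in both scalings, the lists of the respiratory chain and citric acid cycle rise by RNA-seq in the second scaling, and the lower share of the endoplasmic reticulum list shrinks in it.

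A single gene was called in opposite directions by the 2 assays. Lrrc46 had 0.355 and 0.396 TPM by RNA-seq in heart, against 2.32 to 30.9 TPM, a difference of -1.36 (SE 0.17, largest adjusted p = 1.73e-05), and 20.9 and 60.7 TPM by Ribo-seq, against 1.24 to 11 TPM, a difference of 1.69 (SE 0.38, largest adjusted p = 0.00165). Its footprints were higher in replicate 2 of heart than in replicate 1, as were those of the germ cell genes above. In heart its RNA-seq level was below 1 TPM, and the source of these footprints was not tested.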

How the data were processed

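Ribo-seq and poly(A) RNA-seq were made from frozen tissue treated with cycloheximide in the lysis buffer, per the labels' protocols. The submitters' processing notes name CASAVA 1.8.2, cutadapt 1.8.1, TopHat2 2.0.14, Subread and featureCounts 1.6.2 and the build GRCm38.p6. The deposited values are TPM that the authors calculated, in a table of 12 samples per stage and assay. The annotation release is not given in the sources used here, and depth and the precision it gives are unknown. Of 22055 gene identifiers, 22029 matched GENCODE M21, whose coordinates are printed, 1-based. Exons of 6540 genes overlap another gene on either strand.

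Genes with at least 1 TPM in at least 2 of the 12 P42 samples of an assay were tested on log2(TPM + 1) with limma 3.58.1 in R 4.3.3, with a group per tissue, a variance trend, 6 residual degrees of freedom and Benjamini-Hochberg adjustment in each of 5 contrasts. Fold changes of low genes are understated on this scale. Other steps used Python 3.11.15, pandas 2.3.3, numpy 2.4.6 and matplotlib 3.10.9. The fold threshold decided nearly every call. Genes named were the 12 highest and 8 lowest shared calls, up to 6 called members per list, the paired forms and a fixed set, of which a few are not reported here. Members, 42 lists and the naming rule were chosen with earlier results of these data known. The germ cell and sterol lists, and 69 further genes, were chosen after their values were seen. The fit was tested on simulated data with known changes. Alternatives were other pseudocounts, scalings and filters, no trend, embryonic samples in the fit, sample weights, a replicate block and each sample left out, and, added after seeing the data, lung left out and Ribo-seq calls kept to genes with heart RNA-seq of at least 1 TPM.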

Additional observations from a re-analysis of the deposited data

How the results depend on the processing

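Scaling and pseudocount moved the counts. Of genes higher in heart, RNA-seq called 443 with mitochondrially encoded genes left out, 575 with listed genes rescaled to an equal sum and 725 under median-of-ratios scaling. Ribo-seq called 1689 with an equal sum and 1315 under median-of-ratios scaling, 411 with a filter of 5 TPM, 473 with a pseudocount of 4 TPM and 232 in genes with heart RNA-seq of at least 1 TPM. Both assays called 434 with an equal sum and 383 under median-of-ratios scaling. Of genes lower in heart, RNA-seq called 212 with mitochondrially encoded genes left out, 150 with an equal sum, 124 under median-of-ratios scaling, 1715 with a pseudocount of 0.25 TPM and 444 with one of 4 TPM. For Ribo-seq the counts were 25 (equal sum), 38 (median of ratios), 337 and 51 (pseudocounts of 0.25 and 4 TPM). For both assays they were 69 (mitochondrially encoded genes left out), 23, 25, 294 and 40 in the same order.

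Under median-of-ratios scaling these genes, lower by RNA-seq as deposited, were no longer below every tissue, with heart minus the nearest tissue on the log2 scale of: Cox6a1 1.158, Eef1a1 0.763, Gclm 0.472, Gsr 0.496, Nr2f2 0.688, Pdia3 0.634, Per2 0.231, Por 0.035, Rpl3 0.409, Rpn2 0.008, Sec61a1 0.018, Srsf5 0.222 and Srsf6 0.274. An equal sum turned Cox6a1 to 0.258, Rpl3 to 0.029 and Snrnp70 to 0.002. Of 7935 values of single genes under alternatives, 7719 kept direction and call, 153 lost the call, 47 gained one and 16 changed sign.

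Leaving out each sample in turn gave 229 to 251 higher and 1002 to 1293 lower genes by RNA-seq, 696 to 913 and 128 to 263 by Ribo-seq, and 186 to 195 and 117 to 214 by both, where a tissue left with 1 sample was assumed to vary like the others. Replicate numbers did not pair the tissues, with correlations of heart deviations with those of other tissues of -0.189 to 0.093, and a replicate block gave 243 and 1122 genes by RNA-seq and 839 and 178 by Ribo-seq. With lung left out, chosen after seeing the data as was the limit on heart RNA-seq, 348 genes were higher and 1456 lower by RNA-seq, and 1046 and 233 by Ribo-seq. Without counts, what depth limits cannot be given, and genes near 1 TPM are the least certain.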

Other observations

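Genes of cholesterol synthesis and its control were lower in heart than in every other tissue more often than genes at large, in a list of 26 written after several of them had been seen among the lower genes, so its counts support nothing further. By RNA-seq 18 of the 26 were lower with the deposited values, beside 6.83% of all genes, and 13 with mitochondrially encoded genes left out, beside 1.28%. By Ribo-seq 16 were lower, beside 1.11%, and 15 in the second scaling, beside 0.949%. The median difference from the mean of the other tissues was -2.81 by RNA-seq, against -1.17 over all tested genes, and -2.06 by Ribo-seq, against -0.63. Sqle, the epoxidase that makes squalene epoxide, had 0.348 and 0.312 TPM in heart, against 5.04 to 31.4 TPM in the other samples, a difference of -2.39 (SE 0.21, largest adjusted p = 9.72e-07), and by Ribo-seq 1.57 and 1.9 TPM, against 12.1 to 27.8 TPM. Idi1, an isomerase of the pathway, had 2.11 and 2.15 TPM by RNA-seq in heart, against 16 to 71.5 TPM. The heart samples lay below all others for both genes by RNA-seq.

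Footprints of the 192 heart genes were also found in other tissues. In brain they were uneven between replicates for the leading genes, with Myl2 at 21.2 and 4.05 TPM, Myh6 at 21 and 2.64 TPM and Actc1 at 52.6 and 7.71 TPM in replicates 1 and 2, against 2.52 and 1.52 TPM, 2.88 and 0.391 TPM and 4.25 and 0.167 TPM by RNA-seq.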
